A study of Mus musculus with 8 samples.

Results

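LIN28A crosslinking was measured on 7707 protein-coding transcripts of mouse embryonic stem cells and set against the abundance of the same transcripts in poly(A) RNA. The 7707 are the rows of the CLIP table with an mRNA accession (NM_) whose gene symbol does not start with Hist, out of 7820 rows in all. The 87 rows with a non-coding accession and the 26 histone rows were left out, and rows were joined to the poly(A) table by accession. The counts did not enter this choice among the rows. Whether a transcript is a row of the CLIP table did depend on its counts, as described below. CLIP-seq recovers RNA that UV light has crosslinked to a protein, through an antibody to that protein. It was done here once with each of 3 antibodies against LIN28A: 35L33G and 2J3, which are monoclonal and made in-house, and a commercial polyclonal antibody. All libraries came from the A3-1 line in serum and LIF. The CLIP cells and those of the single untreated poly(A) library received no siRNA. Poly(A) and ribosome footprint libraries were also made 48 h after transfection of a luciferase siRNA (siLuc) or a Lin28a siRNA (siLin28a), with 1 library of each kind per siRNA. No CLIP library from cells without LIN28A, or with a control antibody, is among the samples, so an enrichment here is over RNA abundance and not over a mock precipitation.

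LIN28A is a small cytoplasmic protein with a cold shock domain and a pair of CCHC zinc knuckles, and it is abundant in embryonic stem cells and lost as they differentiate. It is best known for binding the precursors of let-7 microRNAs and blocking their maturation. It also binds a large number of mRNAs, and much of it sits at the endoplasmic reticulum, where mRNAs for membrane and secreted proteins are translated. Coding mRNAs can be described by where their proteins are made and go: through the secretory pathway, to the cytosol and mitochondria, or into the nucleus.

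The coding transcripts held 7610565 counts with 35L33G, 7751715 with 2J3 and 7953808 with the polyclonal antibody, against 8847630 in untreated poly(A) RNA. In that library 10 of 10 pluripotency markers had counts, at 140 to 1177 CPM (counts scaled to a library total of 1000000) and 5451 CPM summed. The other marker lists summed to 32.3 CPM for fibroblasts or feeders, 3.35 for primitive endoderm, 6.37 for mesoderm and 10.3 for neural cells, and the 2 trophoblast markers in the table had no count. Whether a transcript is in the CLIP table depended on its counts. Of 6116 coding transcripts with 300 or more untreated counts in the poly(A) table, 99.7% were in the CLIP table. Between 200 and 300 counts 89.4% were present, between 100 and 200 counts 27.0%, and below 100 counts 1.9%. The few poorly covered transcripts that were present had high CLIP counts: of the 128 with fewer than 100 untreated counts, 97.7% were enriched. A transcript in that range could hardly be in the table without being enriched. Of the 420 present with 100 to 200 counts, 67.1% were enriched and 4.52% depleted. A gene named below from that range was therefore more likely than others to be a high one. Counts and medians of gene groups are therefore given for the 6098 transcripts with 300 or more untreated counts, called well covered here. Exceptions are stated, and single genes with fewer counts are named with their count.

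Enrichment is given as log2 of CLIP over untreated poly(A), with library sizes scaled by the trimmed mean of M-values (TMM), which places the middle of all transcripts near 0. Each value is the mean ± SD over the 3 antibodies. A transcript was called enriched or depleted at an adjusted p under 0.05 in edgeR's quasi-likelihood test. Of all 7707 transcripts, 34.0% (2622) were enriched, 33.6% (2587) were depleted and 67.6% were called in either direction. Among the 6098 well covered transcripts 31.5% (1922) were enriched and 38.4% (2339) were depleted, 69.9% in either direction, and the median was -0.16. These shares are the background against which the groups below are read. The spread comes from 3 antibodies against 1 untreated library. The labels do not say whether the libraries came from separate cultures, so the p-values cover only the differences among these libraries, and those may be technical. Scaling by total counts instead lowered the median over coding transcripts from -0.03 to -0.40 and gave 1909 enriched and 3585 depleted transcripts, 34.7% of calls being enriched against 50.3%. A group median between 0 and about that shift therefore changes sign with the scaling, and directions are relative to the middle of the transcriptome.

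The antibodies gave nearly the same picture. Over the well covered transcripts the median SD over antibodies was 0.13 while the SD over transcripts was 1.17 on the log2 scale. All 3 antibodies placed 2449 of them above 0 and 3054 below 0. The antibodies differed by more than 1 log2 unit for 141 transcripts (2.31%), and 140 of these lay below 0 on average, with a median of 405 untreated counts. At the ends of the range, 422 of the 7707 transcripts were enriched at least 4-fold and 405 were depleted at least 4-fold, with 40 and 50 past 8-fold. These counts include poorly covered transcripts, and the 128 with fewer than 100 untreated counts had a median of 2.15. The balance of the ends therefore depends partly on which transcripts the CLIP table holds.

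**Figure D1:**
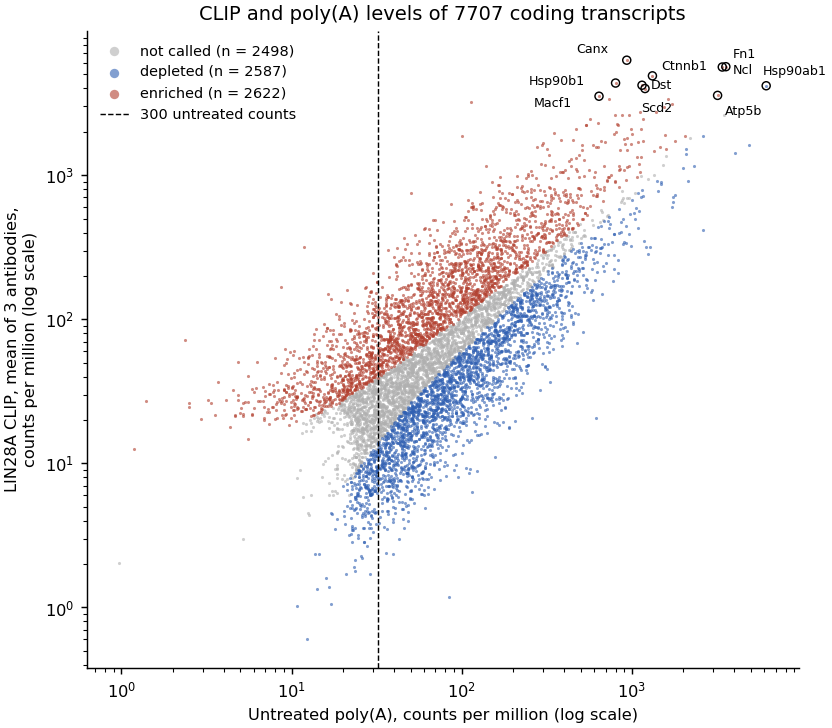
Level of 7707 coding transcripts in untreated poly(A) RNA (x axis, CPM, log scale) against the mean of 3 LIN28A CLIP antibodies (y axis, CPM, log scale). Points are transcripts, coloured by call, the dashed line marks 300 untreated counts and circles mark the 10 transcripts with the most CLIP reads. Left of the line 700 of 1609 transcripts are enriched and 248 depleted, and below 100 untreated counts 125 of 128 are enriched.

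The transcripts that took the most CLIP reads were a mixture of abundant mRNAs and strongly enriched ones. A share of reads grows with transcript length, so reads per kilobase are given where lengths differ. Canx, which encodes the ER lectin chaperone calnexin, stood first at 6279, 6331 and 6224 CPM with 35L33G, 2J3 and the polyclonal antibody, against 931 CPM in untreated RNA. Its enrichment of 3.06 ± 0.01 (SD, n = 3; edgeR adjusted p = 6.2e-20) put all 3 CLIP libraries far above the untreated one. Hsp90b1, the HSP90 chaperone of the ER lumen, had 4093, 4465 and 4514 CPM against 801. The cytosolic counterpart Hsp90ab1 was the most abundant coding transcript of the untreated library at 6144 CPM and was lower in all CLIP libraries, at 4091, 4021 and 4406 CPM, an enrichment of -0.25 ± 0.08. These paralogs thus lay close together in CLIP reads and on opposite sides of 0 in enrichment.

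Ctnnb1, which encodes beta-catenin of the Wnt pathway and of adherens junctions, had 4704, 5568 and 4396 CPM against 1318, and its product is cytosolic. Scd2, a fatty acid desaturase of the ER membrane, had 3953, 3662 and 4357 CPM against 1192. Fn1, which encodes the secreted matrix protein fibronectin, and Ncl, which encodes the nucleolar protein nucleolin, were enriched by 0.98 ± 0.02 and 1.04 ± 0.06 from an already high abundance of 3560 and 3392 CPM. Atp5b, a catalytic subunit of the mitochondrial ATP synthase, was enriched by 0.48 ± 0.07, a call that was lost with total-count scaling. The giant cytoskeletal linkers Dst and Macf1, with transcripts of 23242 and 23495 nt, had 4207 and 3530 CPM on average. Per kilobase they had 181 and 150 CPM and ranked 295 and 398, so neither was among the first 10 per length. Fn1, Ncl and Scd2 also left the first 10, at ranks 30, 29 and 27 per kilobase. Canx with 1464 CPM per kilobase stayed at rank 6.

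Reads were more concentrated in CLIP than in the input when each was ranked by its own counts. The first 10 transcripts held 4.63% of the CLIP counts, averaged over antibodies, and the first 10 of the untreated library held 3.62% of its counts. The first 100 held 20.2% and 14.5%. The untreated shares are of all 9264777 untreated counts, of which 8908070 fall on transcripts of the CLIP table, so they are slightly low beside the CLIP shares. It took 680 transcripts to reach 50% of the coding counts in CLIP and 1020 in untreated RNA. Of the 10 most abundant untreated transcripts, 4 were also among the first 10 in CLIP. Among the others were Gnb2l1, which encodes the ribosomal scaffold RACK1, at -1.28, the transcriptional corepressor Trim28 at -1.17, the splicing factor Prpf8 at -0.70 and the beta-tubulin Tubb5 at -2.35. The remaining ones, Eef2 and Kpnb1, lay near the middle at -0.10 and -0.16.

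Longer transcripts were more enriched, with a higher rho for the length outside the coding sequence than for coding length or exon number. Over the well covered transcripts Spearman's rho of enrichment with transcript length was 0.245, with values of 0.239, 0.245 and 0.244 for the 3 antibodies. In 5 equal bins of length the median enrichment was -0.44, -0.44, -0.22, -0.02 and 0.39. The share of enriched transcripts rose from 23.4% in the shortest bin, up to 1827 nt, to 50.8% in the longest, from 5156 nt. The share of depleted ones went from 46.1% to 23.4%. With coding length alone rho was 0.046, and with the number of exons 0.039. With non-coding length, the transcript length less the coding length, it was 0.291, and the bin medians were -0.55, -0.47, -0.21, 0.01 and 0.41. Transcripts with up to 483 nt outside the coding sequence were depleted in 52.0% of cases and enriched in 21.4%. Those with 2511 nt or more were depleted in 20.1% and enriched in 50.7%. These correlations run across transcripts, which are not independent replicates and share the same libraries, and they are descriptions.

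The gradient was present at each coding length and each abundance. Within the tertile of transcripts with the shortest coding sequence the median went from -0.42 with a short non-coding part to 0.20 with a long one. In the middle tertile it went from -0.76 to 0.20, and in the tertile with the longest coding sequence from -0.48 to 0.34. In tertiles of abundance the same medians went from -0.53 to 0.32, from -0.52 to 0.26 and from -0.55 to 0.23. It was also there when only reads inside the coding sequence were counted, both in CLIP and in the poly(A) RNA column deposited beside it. This was done over the 7532 transcripts, well covered or not, with 50 or more poly(A) counts in the coding sequence. The rho was then 0.220 with non-coding length and 0.245 with transcript length, the reverse of their order over all exon reads. The medians in bins of non-coding length were -0.33, -0.32, -0.02, 0.13 and 0.54. Base composition could not be examined here, and its part was not tested.

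The relation with abundance depended on the library that measured it. In 5 bins of untreated counts the well covered transcripts had medians of -0.18, -0.15, -0.17, -0.06 and -0.21, with rho 0.016. In 5 bins of siLuc counts the same transcripts had medians of -0.44, -0.15, -0.06, -0.04 and -0.09, with rho 0.111. The untreated library is also the denominator of the enrichment, and the siLuc library is not. The well covered set was itself chosen on untreated counts, however, so its siLuc bins are not independent of the denominator. In bins over all 7707 transcripts the lowest siLuc bin had a median of 0.31, and rho with siLuc counts was -0.051. Over all 7707 transcripts the lowest bin of untreated counts stood 0.76 above the highest. With bins cut on the siLuc library instead, the lowest stood 0.40 above the highest. Over the well covered transcripts in bins of untreated counts that difference was 0.03. The error did depend on abundance, with a median SD over antibodies of 0.21 in the lowest of the well covered bins and 0.08 in the highest.

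**Figure D2:**
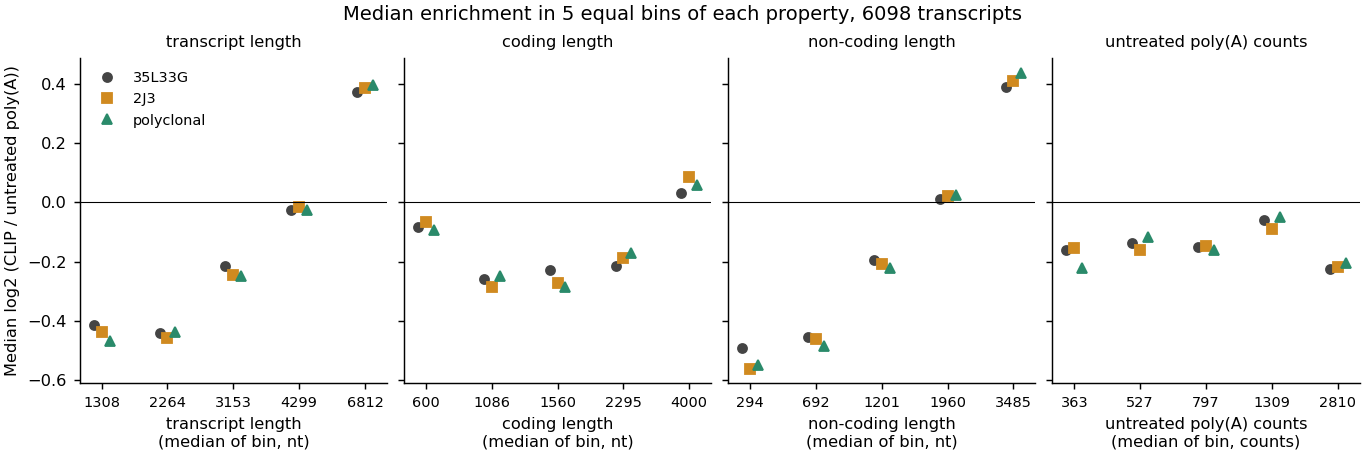
Median log2 enrichment (y axis) of 6098 well covered transcripts in 5 equal bins of transcript length, coding length, non-coding length (x axes, nucleotides) and untreated counts, labelled with the bin medians. Each symbol is 1 antibody. Medians climb to 0.39 with transcript length and to 0.41 with non-coding length, while those with abundance stay between -0.23 and -0.05 for every antibody.

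The highest and the lowest called transcript of each length bin were read alike by the 3 antibodies, apart from those with very few CLIP reads. In the shortest bin Rps26, a protein of the small ribosomal subunit, had 2980, 3317 and 3373 CPM against 114, and Tpt1, the translationally controlled tumor protein, had 1.56, 1.02 and 0.997 CPM against 83.8. Both have differing poly(A) tallies between the deposited tables, so their values of 5.13 and -5.78 are uncertain. In the next bin Pgrmc1, a heme-binding membrane protein of the ER on chromosome X, had 1869, 1902 and 1848 CPM against 99.9, which is 4.54 ± 0.02 (edgeR adjusted p = 7.6e-20). Apbb3, an adaptor that binds the amyloid precursor protein, had at most 2.08 CPM in CLIP against 29.0 (269 untreated counts). Bmpr2, a BMP receptor kinase, led the middle bin with 217, 207 and 207 CPM against 30.1 (279 untreated counts). The uncharacterised 5730559C18Rik was lowest there with 3.90, 7.64 and 0.374 CPM against 48.5, or -4.04 ± 2.16, and lost its call in DESeq2. Ktn1, the kinesin-binding ER membrane protein kinectin, had 1153, 1149 and 1194 CPM against 139, and Ndor1, a cytosolic diflavin reductase, 10.7, 4.97 and 8.60 CPM against 94.9. In the longest bin Slc30a1, a zinc exporter of the plasma membrane, had 626, 618 and 659 CPM against 86.8. Map3k12, a stress kinase known from axons, had at most 12.2 CPM against 157, with differing tallies. The highest transcripts of the second to the fifth bin all encode membrane proteins.

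Lin28a mRNA itself was not called. It had 375, 432 and 405 CPM in CLIP against 465 in untreated RNA, an enrichment of 0.11 ± 0.11 (edgeR adjusted p = 0.32), and -0.26 with total counts. The paralog Lin28b had 190, 178 and 172 CPM against 65.5 and was enriched by 1.77 ± 0.06.

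Gene families were described through 69 lists, each with at least 5 measured members and written from gene symbols. Of these, 19 hold proteins that enter the secretory pathway and 50 hold others. Over the well covered members all 19 membrane and secretory lists had a median above 0, and 16 were above 0.5. Of the other 50 lists 12 had a median above 0. With total counts and all members the numbers above 0 were 18 of 19 and 4 of 50. The joined membrane and secretory lists had 167 enriched and 21 depleted among 237 well covered transcripts, 70.5% and 8.86% against a background of 31.5% and 38.4%. Their median was 1.09 ± 0.02 (SD over antibodies). Cytosolic and mitochondrial lists had 64 enriched and 119 depleted of 260, 24.6% and 45.8%, median -0.31. Nuclear lists had 112 and 195 of 451, 24.8% and 43.2%, median -0.32. Both medians lay nearer to the -0.16 of all well covered transcripts than that of the membrane lists did. Over all measured members, poorly covered ones included, the membrane lists had 244 enriched and 24 depleted of 339, a median of 1.22.

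**Figure D3:**
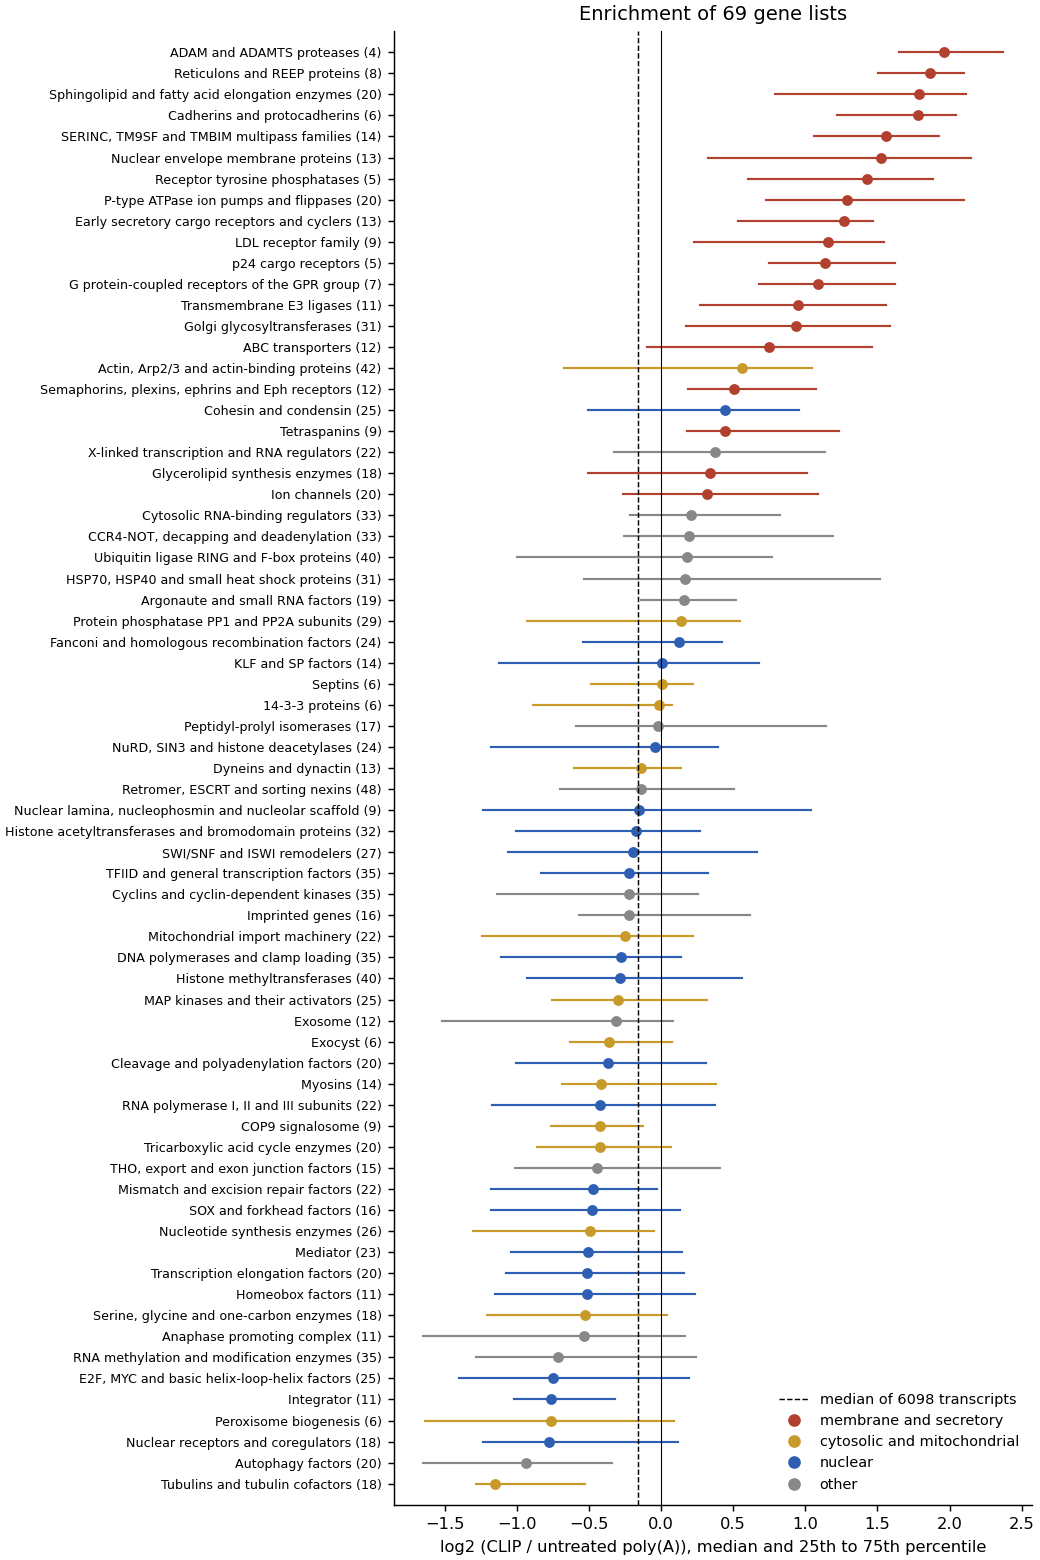
Median log2 enrichment (points) and the 25th to 75th percentile over members (bars) of 69 gene lists, with the number of well covered members in brackets. Colours give the class of each list and the dashed line the median of the 6098 well covered transcripts, -0.16. The 15 uppermost lists are membrane and secretory, and tubulins stand lowest at -1.15.

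The lipid enzymes and shaping proteins of the ER were among the highest. Of 26 measured enzymes of sphingolipid synthesis and fatty acid elongation 20 were well covered, and 17 of these were enriched and 1 depleted, with a median of 1.79. Ormdl2, a small regulator of the first step of sphingolipid synthesis, had 129, 113 and 143 CPM against 22.2 (206 untreated counts and differing tallies). Scd1, a desaturase, was at 1.91 ± 0.11, near the middle of the list, and Tecr, which completes the fatty acid elongation cycle, was depleted at -0.75 ± 0.07, a call lost with siLuc RNA as input. All 8 well covered reticulons, REEP proteins and their partners, which bend ER tubules, were enriched, with a median of 1.87. Lnp, the lunapark protein of ER junctions, had 195, 207 and 234 CPM against 40.9, and Atl2, an atlastin that fuses ER tubules, was at 1.52 ± 0.08. Reep6 lay at the other end of that list with 3.12, 3.69 and 6.60 CPM against 26.9 (249 untreated counts).

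Carriers and enzymes of the secretory route followed. Of 14 well covered SERINC, TM9SF, TMBIM and related multipass proteins 12 were enriched and 1 depleted, median 1.56. Yipf4, a Golgi protein, had 309, 314 and 294 CPM against 46.5, Yipf5 was at 1.73 ± 0.15, and Tmco6 varied from 4.08 to 15.1 CPM against 26.6 and was not called (246 untreated counts). Of 13 early secretory cargo receptors and cyclers 10 were enriched and 3 depleted, median 1.27. Ergic2, which cycles between the ER and Golgi, had 407, 424 and 460 CPM against 61.0, while its relative Ergic1 was depleted at 55.5, 47.1 and 62.3 CPM against 120. The call for Ergic1 was lost with siLuc RNA as input. Mcfd2, a cofactor of the cargo receptor for coagulation factors, was at 1.27 ± 0.08. All 5 well covered p24 cargo receptors were enriched, median 1.14.

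Golgi glycosyltransferases, which build glycans on passing proteins, had 19 enriched and 3 depleted of 31 well covered members and a median of 0.94. Chsy1, a chondroitin synthase, had 242, 258 and 215 CPM against 41.2, and Extl3, an enzyme of heparan sulfate synthesis, was at 1.21 ± 0.13. The galactosyltransferase B4galt3 was depleted with 18.7, 20.9 and 12.8 CPM against 52.5, and this call was lost with siLuc RNA as input. Glycerolipid enzymes were lower, with 9 enriched and 3 depleted of 18 and a median of 0.34 that became -0.03 with total counts.

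Pumps, channels and receptors of the cell surface were enriched to differing degrees. P-type ATPases, which move ions and lipids, had 17 enriched and 1 depleted of 20, median 1.29. Atp7a, the copper pump, had 239, 223 and 244 CPM against 41.9. Atp13a2, a lysosomal polyamine pump, was depleted at -1.37 ± 0.21. Ion channels had 10 enriched and 5 depleted of 20, at a median of 0.32 that fell to -0.05 with total counts. Clcn5, an endosomal chloride exchanger, had 96.5, 94.7 and 85.7 CPM against 15.4 (143 untreated counts). Cacnb1, in the same list, encodes a calcium channel subunit that is cytoplasmic and has no transmembrane segment, and it was lowest at 4.94, 3.06 and 4.48 CPM against 29.7 (275 untreated counts). Trpc4ap, a cytoplasmic partner of a channel, was at 0.26 ± 0.31 and not called.

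Of 7 well covered receptors of the GPR, latrophilin and Frizzled group 5 were enriched and none depleted, median 1.09. Fzd3, a Wnt receptor, had 161, 142 and 152 CPM against 31.2 (289 untreated counts), Gpr125 was at 1.09 ± 0.12, and Lphn1 was not called at -0.14 ± 0.07. With siLuc RNA as input Lphn1 reversed to 0.58 and was called. Cadherins and protocadherins, which hold cells together, had 5 enriched and none depleted of 6, median 1.78. The giant protocadherin Fat1 had 1997, 1958 and 1938 CPM against 350, and Celsr1 was at 1.29 ± 0.17 (272 untreated counts). Celsr3 had 9.87, 15.2 and 16.6 CPM against 32.2 and was not called (298 untreated counts). Semaphorins, plexins, ephrins and Eph receptors had 8 enriched and none depleted of 12, with a lower median of 0.51. Sema3e, a secreted guidance cue, had 53.0, 56.4 and 76.2 CPM against 12.6 (117 untreated counts). Ephb3 was at 0.59 ± 0.06, a call lost with total counts, and Sema4a was not called at -0.76 ± 0.27 (257 untreated counts). Receptor tyrosine phosphatases had 5 enriched of 5, LDL receptor relatives 6 of 9, ABC transporters 7 of 12 with 2 depleted, and tetraspanins 5 of 9.

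Proteins of the nuclear envelope are made at the ER before they reach the inner membrane, and 8 of 13 well covered ones were enriched and 1 depleted, with a median of 1.52. Lbr, the multipass lamin B receptor, had 2156, 2030 and 2086 CPM against 469. Tor1a, a lumenal ATPase, was at 0.83 ± 0.11 (269 untreated counts), a call lost with total counts. Emd encodes emerin, which is anchored by a tail segment at its C terminus, and it was depleted with 10.7, 4.59 and 10.2 CPM against 64.2. The nuclear lamina and nucleolar scaffold list had 3 enriched and 4 depleted of 9, and a median of -0.15. These values were near those of all well covered transcripts, 31.5%, 38.4% and -0.16.

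Most cytosolic and mitochondrial lists had medians below 0, where the median of all well covered transcripts, -0.16, also lay. The cytoskeleton was divided. Tubulins and their cofactors had the lowest median of the 69 lists, -1.15, with 1 enriched and 13 depleted of 18. Tubb5 had 414, 413 and 418 CPM against 2618, an enrichment of -2.35 ± 0.02 (edgeR adjusted p = 4.6e-17), and Tubgcp2, of the microtubule nucleating ring, was at -1.23 ± 0.06. Tbca, a chaperone for beta-tubulin, was the highest with 93.9, 84.5 and 82.7 CPM against 16.1. It had 149 untreated counts, a range in which most transcripts present were enriched. Actin and actin-binding proteins had 23 enriched and 14 depleted of 42, and a median of 0.56. Diap1, a formin that elongates actin filaments, had 1169, 1203 and 1207 CPM against 290. Coro7, a Golgi coronin, was depleted at -2.15 ± 0.80, and Tpm1 was at 0.53 ± 0.19, a call lost with total counts, with siLuc RNA as input, and without 35L33G or the polyclonal antibody. Both filament systems are built in the cytosol, and their difference was not tested as a set.

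These lists of metabolic enzymes had medians below 0, where the median of all well covered transcripts, -0.16, also lay. Of 26 well covered enzymes of nucleotide synthesis 1 was enriched and 14 were depleted, median -0.49. Adss, an adenylosuccinate synthase, was the enriched member at 351, 365 and 361 CPM against 265. Ppat, which catalyses the committed step of purine synthesis, was at -0.48 ± 0.10, and the salvage enzyme Tk1 had 10.4, 9.05 and 7.22 CPM against 58.8. Enzymes of serine, glycine and folate metabolism had 3 enriched and 10 depleted of 18, median -0.53. Gldc, the glycine decarboxylase, was an exception with 1676, 1680 and 1755 CPM against 693, while Cbs was at -1.98 ± 0.44. Amt, which works in the same glycine cleavage system as Gldc, was at -0.44 ± 0.01, a call that other inputs and fits did not keep. Enzymes of the tricarboxylic acid cycle had 4 enriched and 9 depleted of 20, median -0.42. These were 20% and 45%, beside a background of 31.5% and 38.4%. Dld, the lipoamide dehydrogenase subunit, had 418, 402 and 447 CPM against 144, and Idh3g and Idh3b, of 1 enzyme complex, were at -1.82 ± 0.24 and -0.39 ± 0.25, the latter not called.

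Mitochondrial import proteins had 4 enriched and 9 depleted of 22, median -0.25. These were 18.2% and 40.9%, beside a background of 31.5% and 38.4% and a median of -0.16, so the depleted share was near the background. Tomm7, a small outer membrane subunit, had 481, 492 and 517 CPM against 131, and Timm13, a chaperone of the intermembrane space, 29.5, 22.0 and 30.5 CPM against 144. The metaxin Mtx2 was not called at -0.16 ± 0.22. Peroxisome biogenesis factors had 1 enriched and 4 depleted of 6, median -0.77. Pex13, a membrane protein of the import pore, had 176, 174 and 174 CPM against 82.9, and Pex6, a soluble ATPase, 11.7, 8.66 and 7.10 CPM against 73.4. Autophagy factors had 3 enriched and 14 depleted of 20, median -0.94. Rb1cc1, the scaffold of the initiating kinase complex, had 136, 151 and 162 CPM against 52.1, the lipid transfer protein Atg2b was at -0.70 ± 0.17 and the protease Atg4d at -2.21 ± 0.31.

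Most lists of nuclear regulators also had medians below 0, beside -0.16 for all well covered transcripts. The spread inside each complex was wide. Integrator, which cleaves small nuclear RNAs, had 2 enriched and 7 depleted of 11, median -0.76. Ints12 had 55.5, 70.5 and 58.8 CPM against 33.2, Ints3 was at -0.76 ± 0.08 and Ints9, of the cleavage module, at -1.48 ± 0.18. Mediator, which links activators to RNA polymerase II, had 4 enriched and 10 depleted of 23, median -0.51. Mediator thus had shares of 17.4% and 43.5%, beside a background of 31.5% and 38.4%. Its subunits Med13 and Med25 lay at the ends, with 831, 815 and 894 CPM against 225 and 14.7, 15.7 and 18.3 CPM against 140. Med13 has 5271 nt outside its coding sequence and Med25 has 33, but other named genes went the other way. Rara, with 1995 nt, was at -2.66, and Smc5, with 155 nt, was at 2.13. The part of length in single genes was not tested. Med19 was not called at -0.42 ± 0.31. Nuclear receptors and their coregulators had 2 enriched and 10 depleted of 18, median -0.78. The retinoic acid receptor Rara had 16.5, 12.9 and 17.8 CPM against 123. The glucocorticoid receptor Nr3c1 was enriched at 1.68 ± 0.12 (182 untreated counts), and Nr2f6 was not called at -0.81 ± 0.50.

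SOX and forkhead factors had 2 enriched and 7 depleted of 16, median -0.48, with Sox13 at -2.09 ± 0.15, Sox4 at -0.35 ± 0.45 and not called, and Foxn3 at 1.56 ± 0.20 (108 untreated counts). The shares in that list were 12.5% and 43.75%, beside a background of 31.5% and 38.4%. Among chromatin complexes, SWI/SNF and ISWI remodelers had 10 enriched and 12 depleted of 27, 37.0% and 44.4% beside a background of 31.5% and 38.4%. Their median was -0.20, near the -0.16 of all well covered transcripts. Pbrm1, with its bromodomains, had 672, 736 and 684 CPM against 239, the core subunit Smarcb1 had 30.4, 30.6 and 31.9 CPM against 155, and Brd7 was not called. Histone methyltransferases and partners had 15 enriched and 16 depleted of 40, 37.5% and 40%, also near the background, with a median of -0.28. Dpy30, a small subunit of the MLL complexes, had 414, 380 and 434 CPM against 124, and Smyd5 24.9, 24.3 and 20.8 CPM against 171. Wdr82 was at -0.26 ± 0.05, a call that was lost with other inputs. Cohesin and condensin stood above the other nuclear lists, with 14 enriched and 8 depleted of 25 and a median of 0.45, or 0.08 with total counts. Smc5 had 326, 318 and 328 CPM against 91.9, and the condensin subunit Ncapd2 had 114, 110 and 107 CPM against 460. Smc1a, of cohesin, was at 0.45 ± 0.12, and reversed to -0.22 with siLuc RNA as input.

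Lists of factors that act on RNA had medians on both sides of 0. Of 12 exosome and partner subunits, which degrade RNA, 2 were enriched and 5 depleted, median -0.31, and of 35 RNA methylation and modification enzymes 8 and 19, median -0.72, against -0.33 over all 51 measured members. The exosome shares were 16.7% and 41.7%, beside a background of 31.5% and 38.4%. Deadenylation and decapping factors had 12 enriched and 6 depleted of 33, at a median of 0.20 that became -0.17 with total counts. Cnot4 had 123, 145 and 127 CPM against 42.9, the deadenylase subunit Pan2 was at -1.40 ± 0.27, and Cnot3 was not called. Cytosolic RNA-binding regulators had 15 enriched and 7 depleted of 33, at a median of 0.21, or -0.16 with total counts. Larp4, which binds poly(A) tails, had 536, 492 and 492 CPM against 146, and the stress granule protein G3bp1 had 249, 242 and 247 CPM against 597. Trim71, a let-7 target of stem cells, was at 0.27 ± 0.08, a call lost without the polyclonal antibody, and at -0.10 with total counts. Argonaute and small RNA factors had 5 enriched and 4 depleted of 19, and a median of 0.16, or -0.21 with total counts. Tarbp2, a partner of Dicer, was at -2.76 ± 0.74, and Dicer1 itself was at 0.16 ± 0.07 and not called, though it was called at 0.25 with siLuc RNA as input.

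The chaperone lists hold members of several compartments. HSP70, HSP40 and small heat shock proteins had 15 enriched and 10 depleted of 31, at a median of 0.17, or -0.20 with total counts. Dnajb11, an HSP40 cofactor in the ER lumen, had 521, 516 and 425 CPM against 67.6. Hspb8, a small heat shock protein of the cytosol, had 2.34, 1.15 and 2.24 CPM against 23.3 (216 untreated counts), and the cytosolic cofactor Dnajc7 was at 0.52 ± 0.07, a call lost with total counts. Peptidyl-prolyl isomerases had 7 enriched and 5 depleted of 17, at a median of -0.02, against 0.43 over all 21 measured members. The shares were 41.2% and 29.4%, beside a background of 31.5% and 38.4%. Ppib, the cyclophilin of the ER lumen, had 854, 715 and 697 CPM against 50.4, with differing tallies. Fkbp8, which is anchored in the outer mitochondrial membrane, had 37.8, 32.5 and 30.0 CPM against 196, and Ppil4 was not called.

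Transcripts were also grouped by the letters that open a gene symbol, the stem, with no choice of members by hand. Symbols often follow function or structure, so the stems are not independent of the lists. The stems Ints and Med repeat the Integrator and Mediator lists. Of 71 such stems with at least 10 measured members, together 1845 transcripts, 24 had a median above 0 over their well covered members and 47 below it. With total counts 8 of the 71 were above 0. Symbols in Wdr, named for a repeat fold found in many complexes, had 3 enriched and 30 depleted of 38 well covered members and a median of -1.01. Symbols in Ddx, RNA helicases, had 8 and 16 of 31, with a median of -0.51. Symbols in Kif, kinesin motors, had 8 and 11 of 24 and a median of -0.34. These were 33.3% and 45.8%, beside a background of 31.5% and 38.4%. The zinc finger symbols in Zfp formed the largest stem, with 147 measured and 88 well covered members, of which 32 were enriched and 28 depleted. Those shares, 36.4% and 31.8%, were near the background. The Zfp median of 0.08 became -0.29 with total counts. Solute carriers, with symbols in Slc, had 47 enriched and 21 depleted of 95, median 0.41. Symbols in Arl had 6 and 1 of 12, median 0.73. Not all of these are ARL GTPases, and the highest member of the stem was Arl6ip6.

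Enrichment also differed by chromosome. Over the well covered transcripts the median was lowest on chromosome 7 at -0.65 (419 transcripts, 18.1% enriched and 56.8% depleted) and on chromosome 17 at -0.51 (309 transcripts). It was highest on chromosome 13 at 0.25 (188 transcripts, 43.6% enriched and 23.4% depleted) and on chromosome 1 at 0.22 (392 transcripts). Chromosome X was at 0.14 with 163 transcripts. Genes on a chromosome share families and base composition, so these values are a description, and the part of either was not tested.

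Class and non-coding length each went with enrichment when the other was held. In the tertile of all coding transcripts with the shortest non-coding part, up to 760 nt, the well covered members of the membrane and secretory lists had a median of 0.09. The cytosolic and mitochondrial lists had -0.66 there, the nuclear lists -0.58, and all well covered transcripts -0.54. In the tertile with the longest non-coding part, from 1804 nt, the medians were 1.43, 0.19, 0.05 and 0.26. Of the 110 membrane transcripts in that tertile 93 were enriched and 1 depleted. Of the 39 in the shortest tertile 16 were enriched and 10 depleted, and their median became -0.28 with total counts.

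**Figure D4:**
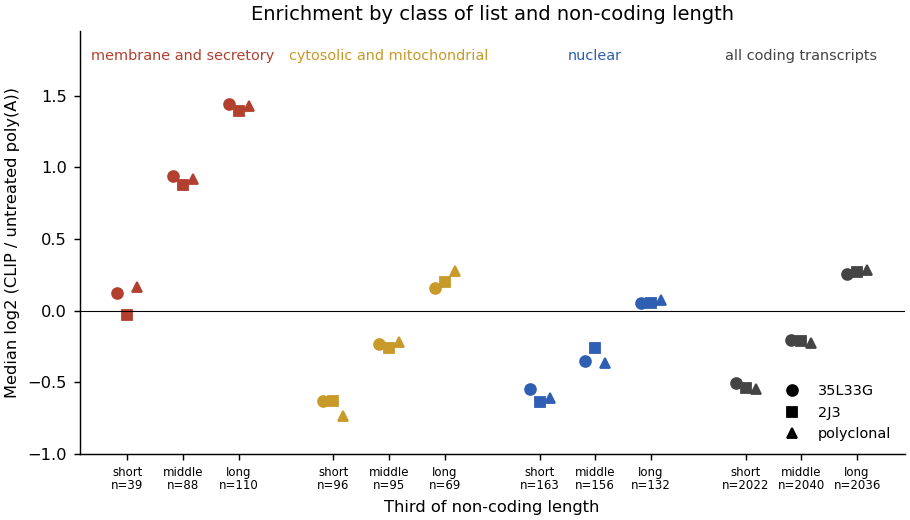
Median log2 enrichment (y axis) of well covered transcripts by class of list and tertile of non-coding length (x axis), with the number of transcripts under each position. Each symbol is 1 antibody. Medians climb with non-coding length in every class, from 0.09 to 1.43 in the membrane and secretory lists and from -0.58 to 0.05 in the nuclear lists.

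The study also asked how translation changes when LIN28A is depleted, and the same transcripts can be followed there. Ribosome density change is log2 of footprints over poly(A) counts in siLin28a cells less the same in siLuc cells, centred on its median. It was available for 6519 coding transcripts with 50 or more counts in each of the 4 libraries. None of these libraries entered the enrichment, and with 1 library per condition the change has no replicate check and no p-value. Transcripts with more LIN28A crosslinking had higher ribosome density after the knockdown. In 5 equal bins of enrichment the median change was -0.34, -0.21, -0.05, 0.13 and 0.61, and the share above 0 was 24.8% in the lowest bin and 83.3% in the highest. Spearman's rho across transcripts was 0.497 (0.481 over those well covered). Enriched transcripts had a median of 0.38, depleted ones -0.32 and those not called 0.03.

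Unlike enrichment, the density change hardly followed length. Its rho was -0.074 with transcript length and 0.078 with non-coding length, and within tertiles of non-coding length its rho with enrichment was 0.435, 0.518 and 0.553. At a given call the change differed between the classes of lists. The values by class and by list are over all members with a density value, poorly covered ones included. In the membrane and secretory lists all 205 enriched transcripts had a change above 0, with a median of 0.84. The 58 that were not called had a median of 0.64, and the 22 depleted ones still had 0.48, with 77.3% above 0. In the nuclear lists the 112 enriched transcripts had a median of -0.08 and 42.0% above 0, the 147 not called had -0.19, and the 190 depleted ones -0.37. In the cytosolic and mitochondrial lists these medians were 0.08, -0.05 and -0.32. Thus depleted membrane transcripts had a higher median change than enriched nuclear ones, and within each class the order by call was the same. B4galt3 and Atp13a2, depleted in CLIP, had changes of 0.95 and 0.65. Ncl and Cnot4, enriched in CLIP, had -0.49 and -0.75.

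At the level of lists, again with poorly covered members, Golgi glycosyltransferases had a median density change of 0.95, reticulons and REEP proteins 0.87 and P-type ATPases 0.74. Cytosolic RNA-binding regulators, with a CLIP median above 0 under TMM scaling, had the lowest density change of the 69 lists at -0.51. Actin-binding proteins and cohesin and condensin likewise combined positive CLIP medians with changes of -0.16 and -0.21. Autophagy and peroxisome factors combined some of the lowest CLIP medians with changes of 0.16 and 0.20. Tubulins were low in both, with a change of -0.35.

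**Figure D5:**
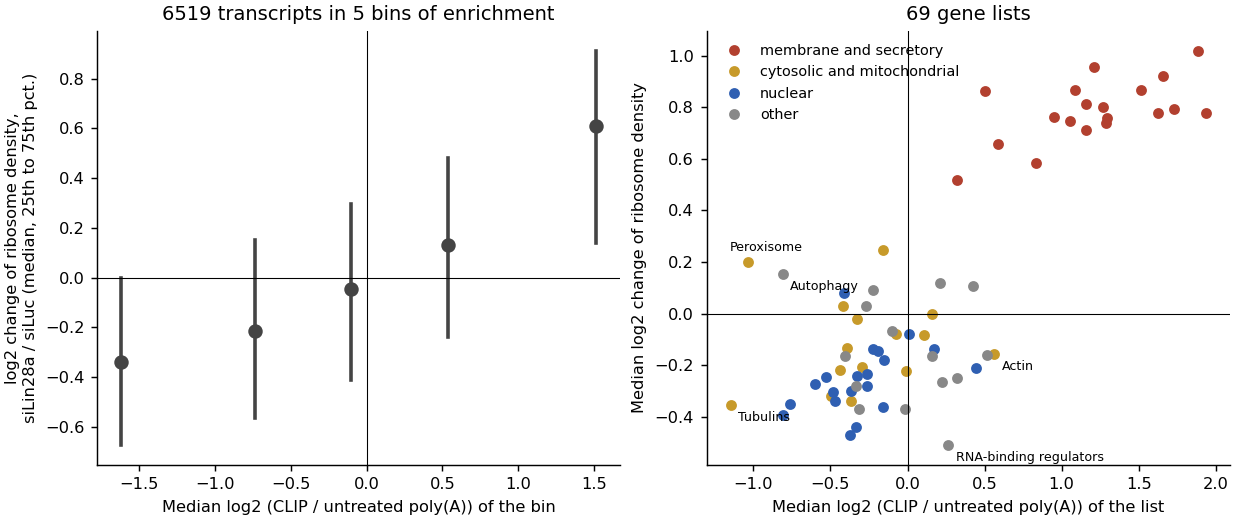
Left, median log2 change of ribosome density after Lin28a siRNA (y axis, with the 25th to 75th percentile) in 5 bins of CLIP enrichment (x axis, bin median), 6519 transcripts. Right, the same quantities as medians of 69 gene lists, poorly covered members included, coloured by class. Membrane and secretory lists lie apart from the others at the upper right, and RNA-binding regulators lie lowest at -0.51.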

How the data were processed

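Exon counts of LIN28A CLIP (3 antibodies) and untreated poly(A) RNA (1 library), both whole-read counts per RefSeq transcript as deposited by the authors, were joined by accession. Transcript, coding and non-coding lengths and exon numbers, deposited in the authors' CLIP table, were used as given. GSNAP, bedtools and the mm9 build appear, with neither role nor version, per the submitters' processing notes. How reads were assigned to transcripts is not given in the sources used here. CPM scale each library's counts to a total of 1000000, over 7820 rows for CLIP and all 16456 rows for poly(A) RNA. Untreated CPM are therefore slightly low beside CLIP CPM, and the log2 enrichments do not use CPM. Enrichment was tested with edgeR 4.0.16 in R 4.3.3 (quasi-likelihood, TMM, filterByExpr, Benjamini-Hochberg over all 7820 rows, threshold 0.05), with DESeq2 1.42.0 as an alternative. Per-antibody log2 values used TMM library sizes and a pseudocount of 0.5. On simulated counts over 7818 rows, 13.4%, 73.1% and 100% of transcripts changed 1.5-, 2- and 4-fold were called, with 7 false among 131 calls. Only 67, 67 and 66 transcripts were changed there, and all had the same dispersion of 0.0198. In the data 67.6% of coding transcripts were called, so these shares do not carry over to the data.

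Total counts over coding members lay between 7610565 and 8847630, so counting error is small for most transcripts. The bound of 300 untreated counts was chosen after seeing the data. For 88 coding transcripts the untreated counts and the CLIP table's poly(A) column, which names no condition, differed over 2-fold from the median ratio; these are called differing tallies. The file turned 14 symbols into dates, and these were read from their accessions in the RefSeq gene table, where 7637 of 7707 accessions were found. The members, lists and tests were chosen with earlier results of these data known. Named genes were the 10 with the most CLIP reads, the highest and lowest called transcript of each length bin with 200 or more untreated counts, the highest, lowest and most central member with 100 or more untreated counts of each list described with examples, and Lin28a and Lin28b. Not every gene that this rule names is reported here. The other untreated-RNA genes are the rest of the 10 most abundant in that library. They and the genes given as examples of density change were chosen after their values were seen. A description by hydrophobic segments of the proteins was planned and not made, since protein sequences were not used here. A further 22 columns with values per sample were left aside.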

Additional observations from a re-analysis of the deposited data

How the results depend on the processing

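The numbers of enriched and depleted transcripts stayed within 1.5 times the main counts in every other setting tried. With 2 of the 3 antibodies they were 2506 to 2591 and 2457 to 2573, and 2149 enriched and 2010 depleted transcripts were shared by 9 settings, which leave out total counts and the 2 settings that test fewer transcripts. Calls in the opposite direction numbered 11 at most, with the CLIP table's poly(A) column as input.

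The rho of enrichment with transcript length, 0.225 over all 7707 transcripts, was 0.273 with the CLIP table's poly(A) column, 0.232 at 200 or more untreated counts, 0.245 at 300 or more, 0.245 with coding reads only, 0.023 with coding length and 0.285 with non-coding length. That last rho was 0.312 with the CLIP table's column, 0.294 with siLuc input, 0.287 at 200 or more counts, 0.291 at 300 or more, 0.220 with coding reads only, and from 0.284 to 0.285 without 1 antibody. The abundance difference of 0.757 was 0.400 with siLuc bins and 0.034 at 300 or more counts, which leaves out the poorly covered transcripts, and from 0.763 to 0.768 without 1 antibody.

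The medians of the membrane and secretory, cytosolic and mitochondrial, and nuclear lists were 0.85, -0.62 and -0.65 with total counts, 1.25, -0.35 and -0.24 with the CLIP table's column, 1.03, -0.28 and -0.31 at 200 or more counts, and 1.09, -0.31 and -0.32 at 300 or more. With siLuc input the second was -0.23. Without 1 antibody they ran from 1.19 to 1.25, from -0.27 to -0.26 and from -0.29 to -0.25. The rho with ribosome density was 0.530 at 200 or more counts per assay, 0.481 at 300 or more untreated counts and 0.435, 0.518 and 0.553 in tertiles of non-coding length.

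With total counts 10 of the 69 list medians over all measured members changed sign: ion channels (-0.049), deadenylation and decapping factors (-0.15), Argonaute and small RNA factors (-0.21), RNA-binding regulators (-0.10), KLF and SP factors (-0.36), septins (-0.26), PP1 and PP2A subunits (-0.21), Fanconi and recombination factors (-0.20), RING and F-box ligases (-0.16) and X-linked regulators (-0.050). So did the values of Cnot3 (-0.16), Dicer1 (-0.21), Lin28a (-0.26), Trim71 (-0.10) and Trpc4ap (-0.090). With siLuc input the nuclear lamina list (0.022), Lphn1 (0.58), Smc1a (-0.22) and Wdr82 (0.038) changed sign, and at 300 or more untreated counts the peptidyl-prolyl isomerases did (-0.021). The cause was not tested.

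The hydrophobic segment description could not be run. No paired analysis was possible because the labels give no replicate numbers and the input is a single library. Depth limits depleted transcripts most, where few CLIP counts remain, and 1 untreated library carries every ratio, so an error in its count of a transcript enters all 3 antibodies alike.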
